A study of Mus musculus with 6 samples.

Results

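The genes described here are 33 genes of glycolysis and glucose uptake: glucose transporters, the enzymes that turn glucose into pyruvate and lactate, the kinases that set the fate of pyruvate, and a few genes at the edges of the pathway. They were listed by gene symbol as members of the pathway, with earlier results of these data known. Of the 33, 30 had a probe with a single symbol (41 probes), and 26 had a probe that was detected on at least 2 of the 6 arrays and could be tested, out of 8605 genes tested in all. The probe annotation used here paired no probe with Gpi1, Eno1 or Ldhb, which are not analysed here. Bnip3, Pdk2, Slc16a1 and Pgm2 were detected on 0 of 6 arrays and were set aside.

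Glycolysis splits glucose into pyruvate and yields ATP without oxygen. Lactate dehydrogenase then turns pyruvate into lactate, while the pyruvate dehydrogenase complex feeds it into mitochondria, and pyruvate dehydrogenase kinases switch that complex off. Pluripotent stem cells are known for high glycolytic flux, and many genes of the pathway are targets of the hypoxia-inducible factor HIF-1 and of MYC, which bind short motifs with the core ACGTG.

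The cells were mouse embryonic stem cells grown for 5 days in medium with serum and LIF, a cytokine that holds stem cells undifferentiated, and with no feeder cells. The groups were Sox17-inducible cells given doxycycline at 1 µg/mL for 5 days (Sox17_dox, n = 2), the same lines without it (Sox17_untreated, n = 2), control KH2 cells given doxycycline (KH2_dox, n = 1) and KH2 cells without it (KH2_untreated, n = 1). Doxycycline switches on an inducible transgene for Sox17, a transcription factor of endoderm. The inducible group comprised 2 independently derived lines, here line 1 (whose label carries no number) and line 2, and KH2 was 1 line. The protocol in the labels speaks of the inducible cells and is repeated for KH2. Nothing in the labels says that arrays came from separate cultures beyond line and treatment, so p-values measure the spread between these arrays. Because the arrays read bulk RNA, a smaller number of cells with a transcript and less of it per cell cannot be told apart.

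Total RNA was read on 6 Illumina bead arrays of 25697 probes, of which 43.7% to 46.5% were detected on an array at a detection p under 0.05. All values below are normalised signals on the log2 scale, where a difference of 1 is a doubling, and each fitted difference is given with limma's standard error (SE). The beads of the probes that read the 26 genes gave standard errors of 2.40% to 8.61% of the signal, and the number of arrays limits the precision further. The pluripotent cell markers were detected for 8 of 8 genes on every array, with a summed log2 level of 97.40 and 96.15 in Sox17_dox, 97.34 and 95.92 in Sox17_untreated, 95.22 in KH2_dox and 96.04 in KH2_untreated. The endoderm markers summed to 66.77 and 72.07 in Sox17_dox, 58.95 and 64.33 in Sox17_untreated, 61.31 in KH2_dox and 60.19 in KH2_untreated. Their sum was thus higher with doxycycline in both inducible lines and higher in line 2 than in line 1. Of the 7 tested markers, 5 were higher and 2 lower with doxycycline in line 1, and 7 were higher in line 2. In line 2 against line 1, 6 were higher and 1 lower. Of the fibroblast markers, 4 of 6 (Col1a2, Col3a1, Postn, Lum) were detected on no array, as were the muscle markers Myod1 and Ckm and the neuronal marker Snap25.

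The promoters of 4 of the genes are shown first because their values carry the account below: Ldha, Aldoc and Tpi1 read lower in both induced lines, and Pgam2 is the gene that differed between the inducible lines. Each is 250 bases before to 50 bases after a RefSeq transcript start (build GRCm38.p6), 5′ to 3′ on the gene's strand, with the hypoxia response core ACGTG and its reverse complement CACGT in capitals. Where RefSeq gives 2 starts for a gene (Ldha and Aldoc), the upstream one is shown.

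Ldha, chr7:46845554-46845853, plus strand: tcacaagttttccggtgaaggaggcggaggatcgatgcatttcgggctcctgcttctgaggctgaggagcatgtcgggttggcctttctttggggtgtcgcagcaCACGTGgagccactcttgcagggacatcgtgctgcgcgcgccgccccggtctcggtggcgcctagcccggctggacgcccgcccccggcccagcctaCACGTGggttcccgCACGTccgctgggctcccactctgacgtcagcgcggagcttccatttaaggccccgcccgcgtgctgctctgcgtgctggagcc
Aldoc, chr11:78322823-78323122, plus strand: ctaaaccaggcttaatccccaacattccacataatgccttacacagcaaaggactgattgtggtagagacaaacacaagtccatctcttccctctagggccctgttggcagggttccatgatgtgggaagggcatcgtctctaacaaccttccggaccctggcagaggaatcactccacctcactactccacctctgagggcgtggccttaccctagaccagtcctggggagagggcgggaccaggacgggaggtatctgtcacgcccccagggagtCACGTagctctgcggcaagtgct
Tpi1, chr6:124814109-124814408, minus strand: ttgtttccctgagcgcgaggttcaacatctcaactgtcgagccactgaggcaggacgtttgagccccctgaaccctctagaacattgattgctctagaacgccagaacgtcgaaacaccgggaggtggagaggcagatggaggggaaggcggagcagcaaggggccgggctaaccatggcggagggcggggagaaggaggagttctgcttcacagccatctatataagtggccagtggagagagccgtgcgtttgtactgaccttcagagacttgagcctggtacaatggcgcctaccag
Pgam2, chr11:5803747-5804046, minus strand: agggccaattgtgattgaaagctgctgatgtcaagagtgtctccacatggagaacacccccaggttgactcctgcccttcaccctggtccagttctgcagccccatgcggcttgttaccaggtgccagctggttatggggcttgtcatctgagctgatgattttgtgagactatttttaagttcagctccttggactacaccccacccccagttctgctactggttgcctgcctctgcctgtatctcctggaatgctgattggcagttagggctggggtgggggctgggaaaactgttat

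The Ldha promoter held ACGTG 2 times and CACGT 3 times. Both ACGTG matches overlap a CACGT as the palindrome CACGTG, which is also the E-box that MYC binds. The Aldoc promoter held CACGT once, close to its 3′ end, and these letters were not in the Tpi1 and Pgam2 windows. Over the genes of this list, 32 had a promoter entry and 19 of them (59.4%) held the core on either strand, among them Slc2a1, Hk1, Hk2, Aldoa, Gapdh, Pgk1, Pgam1 and Pkm. A gene with several entries was counted if any of them held it. Among the tested genes of the list, 25 had an entry and 15 of these (60%) held the core. Counted in the same way, the share was 21.8% of the 27025 genes with an entry and 29.7% of the 7002 tested genes with one. A match is a description of the sequence and does not show binding.

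The first comparison asked how these genes differed in the Sox17-induced lines from the same lines without doxycycline. Ldha, the muscle-type lactate dehydrogenase subunit that makes lactate from pyruvate, and Aldoc, a fructose-bisphosphate aldolase best known from brain, read lower in both induced lines. Hk1, a hexokinase that traps glucose in the cell, Eno2, the neuronal type of enolase, and Pdha1, the catalytic subunit of pyruvate dehydrogenase, read higher in both. The glucose transporters Slc2a1 and Slc2a3 differed in sign between the lines. None of the 26 genes passed the test (smallest adjusted p = 0.955 by limma with Benjamini-Hochberg adjustment over 12373 probes), and the background was 0% of the 8605 genes in either direction. limma called 0 probes here, with 528 at an unadjusted p under 0.05. With the line as a block it called 1, that of Gata6, a transcription factor of primitive endoderm (log2 difference 2.06, adjusted p = 0.0327), and the lowest adjusted p among the 26 genes was 0.201 (Aldoc). An exact two-sided permutation test of 2 arrays against 2 cannot go below p = 0.333.

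Ldha read 13.91 in induced line 1 and 13.60 in induced line 2, against 14.48 and 14.15 without doxycycline. Both induced arrays lay below both untreated arrays, and the difference was the same in size in the 2 lines (-0.57 and -0.54). The fitted difference was -0.56 ± 0.23 (SE, n = 2 arrays against 2, limma adjusted p = 0.955), a fold of 0.680. That error leaves out the pairing by line, and with the line as a block the SE for Ldha was 0.16 (limma adjusted p = 0.249). In KH2 it read 14.26 with and 14.54 without doxycycline, a difference of the same sign (-0.28).

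Aldoc read 8.13 and 8.62 in induced lines 1 and 2, against 9.27 and 9.15 without doxycycline. The groups did not overlap, and line 1 (-1.13) had about 2 times the difference of line 2 (-0.53). The fitted difference was -0.83 ± 0.24 (SE, limma adjusted p = 0.955), a fold of 0.561, while KH2 read 8.84 with and 8.72 without doxycycline. With the line as a block the SE for Aldoc was 0.20 (limma adjusted p = 0.201). The 4 neuronal markers, of which 2 or 3 were detected on an array, summed to 23.02 and 23.96 in the induced lines, against 24.02 and 23.92 without doxycycline, and their part in the Aldoc values was not tested.

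Ldha and Aldoc were the 2 genes of the list that read at least 0.5 lower in both lines, as did 1.42% of all 8605 genes. No member read at least 0.5 higher in both, against 1.87% of all genes. Over the whole list the groups did not overlap for 5 genes that were lower (Aldoc, Ldha, Pfkl, Pkm and Tpi1), or 19.2%, against 17.6% of all genes, and for 4 that were higher (Eno2, Hk1, Pdha1 and Pfkp), or 15.4%, against 15.9%. These 2 shares are near the background and are no result about the list. The median difference was -0.04 over the 26 genes and -0.01 over all genes, with 10 genes (38.5%) higher, against 48.7% of all genes, and 16 lower. At an unadjusted p under 0.05 were Aldoc and Ldha, or 7.69%, against 4.57% of all genes. In both lines 8 genes (30.8%) read lower, against 31.3% of all genes, and 6 (23.1%) read higher, against 29.3%.

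**Figure D1:**
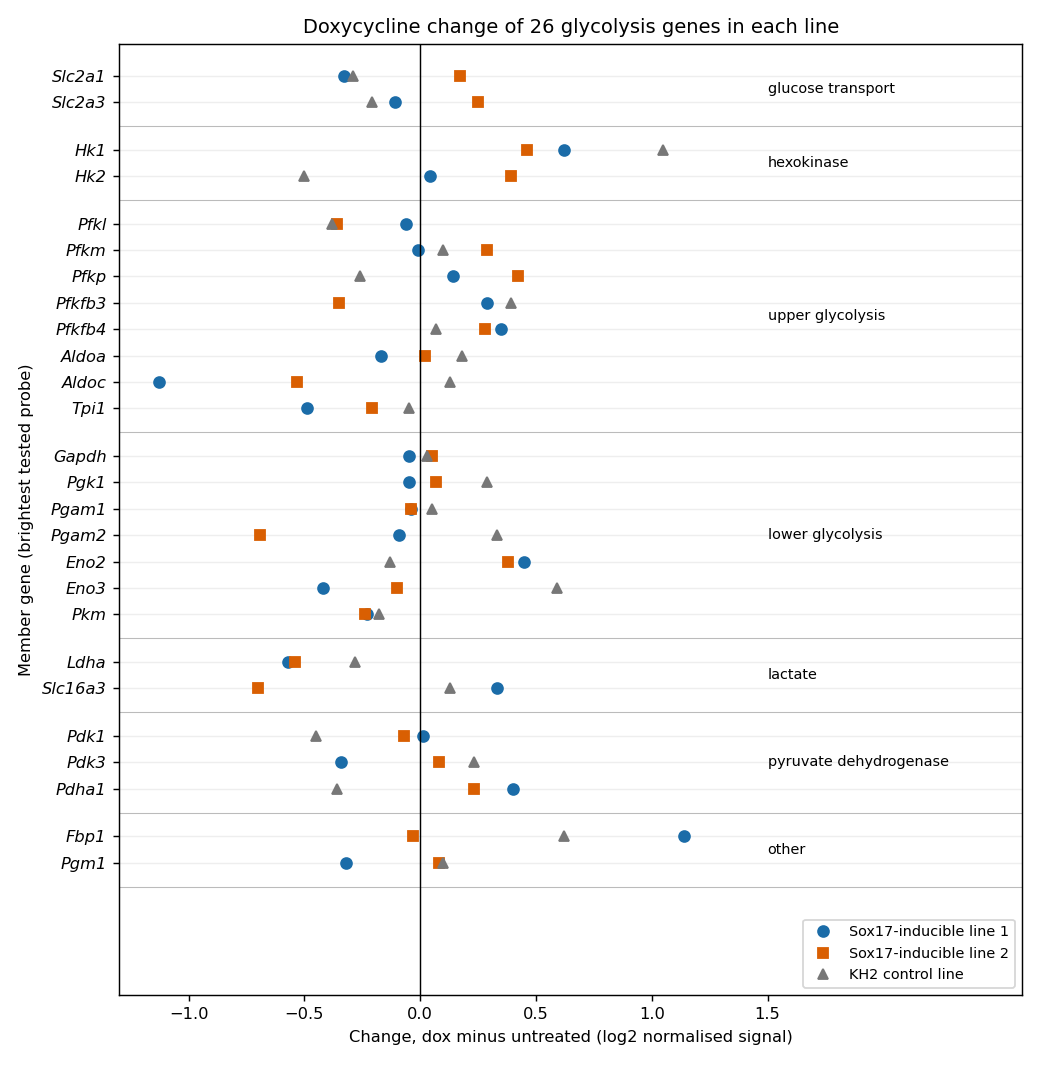
Change with doxycycline (dox minus untreated, log2 normalised signal) of each of the 26 tested genes, grouped by pathway step, with circles for inducible line 1, squares for inducible line 2 and triangles for KH2. Each point is a difference of 2 arrays with no error of its own. Aldoc and Ldha lie to the left in both inducible lines, at -1.13 and -0.53 and at -0.57 and -0.54, while Fbp1 reads 1.14 in line 1 and -0.03 in line 2.

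Of the glucose transporters, Slc2a1 (GLUT1) read 13.28 and 13.43 in induced lines 1 and 2, against 13.61 and 13.25 without doxycycline, so the groups overlapped. Slc2a3 (GLUT3), a transporter with high glucose affinity, read 13.84 and 14.04 in the induced lines, against 13.95 and 13.79 without. Both transporters were lower in induced line 1 and higher in induced line 2, and in KH2 both were lower with doxycycline (-0.29 and -0.21).

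The hexokinases differed from each other in KH2. Hk1 read 6.48 and 6.71 in induced lines 1 and 2, against 5.86 and 6.26 without doxycycline, and the groups did not overlap (0.54 ± 0.23, SE, limma adjusted p = 0.955). The value was 0.25 with no background correction and 0.34 without the untreated array of line 1. In KH2 it read 6.48 with doxycycline and was below detection without it, at least 1.75-fold lower there. Hk2, the hexokinase isoform that HIF-1 induces, read 13.34 and 13.17 in the induced lines, against 13.30 and 12.78 without, and 12.62 in KH2_dox against 13.12 in KH2_untreated.

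In upper glycolysis the 3 phosphofructokinase subunits, which make the committed step, did not go one way. Pfkp, the platelet type, read 10.58 and 10.60 in induced lines 1 and 2, against 10.44 and 10.18 without doxycycline, and a second probe gave 0.37 and 0.25 for the 2 lines. Pfkl, the liver type, read 12.86 and 12.77 in the induced lines, against 12.92 and 13.13 without, and its second probe was also lower in both (-0.20 and -0.46). Pfkm, the muscle type, differed by -0.01 and 0.29. The other Pfkm probes gave 0.25 and 0.23 for one and 0.11 and 0.26 for the other. The bifunctional enzymes that make and remove fructose 2,6-bisphosphate, an activator of phosphofructokinase, read 0.29 and -0.35 for Pfkfb3 and 0.35 and 0.28 for Pfkfb4.

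Tpi1, triosephosphate isomerase, read 13.83 and 13.82 in induced lines 1 and 2, against 14.32 and 14.03 without doxycycline. Its 3 probes gave fitted differences of -0.35, -0.45 and -0.44, and each was lower in both lines. In KH2 they disagreed, with differences of -0.05, -0.06 and 0.55. Aldoa, the ubiquitous aldolase, differed by -0.17 and 0.02.

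In lower glycolysis, Gapdh, a dehydrogenase often used as a reference transcript, read 14.90 and 14.94 in induced lines 1 and 2, against 14.96 and 14.89 without doxycycline. Pkm, pyruvate kinase of muscle and of proliferating cells, read 13.94 and 13.77 in the induced lines, against 14.17 and 14.01 without, and it was lower by a like amount in KH2 (-0.23, -0.24 and -0.18). Eno2 read 7.00 and 7.26 in the induced lines, against 6.56 and 6.88 without, and neither group overlapped the other. The fitted Eno2 value of 0.41 was 0.23 with no background correction and 0.25 without the untreated array of line 1. Pgk1, which makes ATP from bisphosphoglycerate, and Pgam1, the ubiquitous phosphoglycerate mutase, stayed within 0.07 in both lines. A single probe reads Pgk1, and it was much dimmer than those of Gapdh and Pkm, at 7.48 to 7.69 on the inducible arrays. The muscle isoforms Pgam2 (-0.09 and -0.69) and Eno3 (-0.42 and -0.10) were lower in both, each with most of its difference in 1 line.

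At the exit of the pathway, Slc16a3 (MCT4), a lactate exporter, was detected on 3 of 6 arrays and on only 1 of the 2 induced arrays, with 0.33 in line 1 and -0.70 in line 2. Pdha1 read 12.12 and 11.93 in induced lines 1 and 2, against 11.72 and 11.70 without doxycycline, with no overlap (0.32 ± 0.20, SE, limma adjusted p = 0.955). Of the kinases that inhibit it, Pdk1, a HIF-1 target, differed by 0.01 and -0.07, and Pdk3 by -0.34 and 0.08. Pgm1, phosphoglucomutase at the entry to glycogen, differed by -0.32 and 0.08.

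Fbp1, the gluconeogenic fructose-bisphosphatase that opposes phosphofructokinase, read 6.79 in induced line 1 and 7.23 in induced line 2, against 5.64 and 7.26 without doxycycline. The difference was 1.14 in line 1 and -0.03 in line 2, and the untreated array of line 1 was the lowest of the 4. The fitted difference was 0.56 ± 0.51 (SE), and without the untreated array of line 1 it was -0.25. In KH2, Fbp1 read 5.92 with doxycycline and was below detection without it, at least 1.19-fold lower there. Fbp2, the muscle-type bisphosphatase, which is not on the list, differed by 1.71 and 1.60 in lines 1 and 2 and by -0.48 in KH2.

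**Figure D2:**
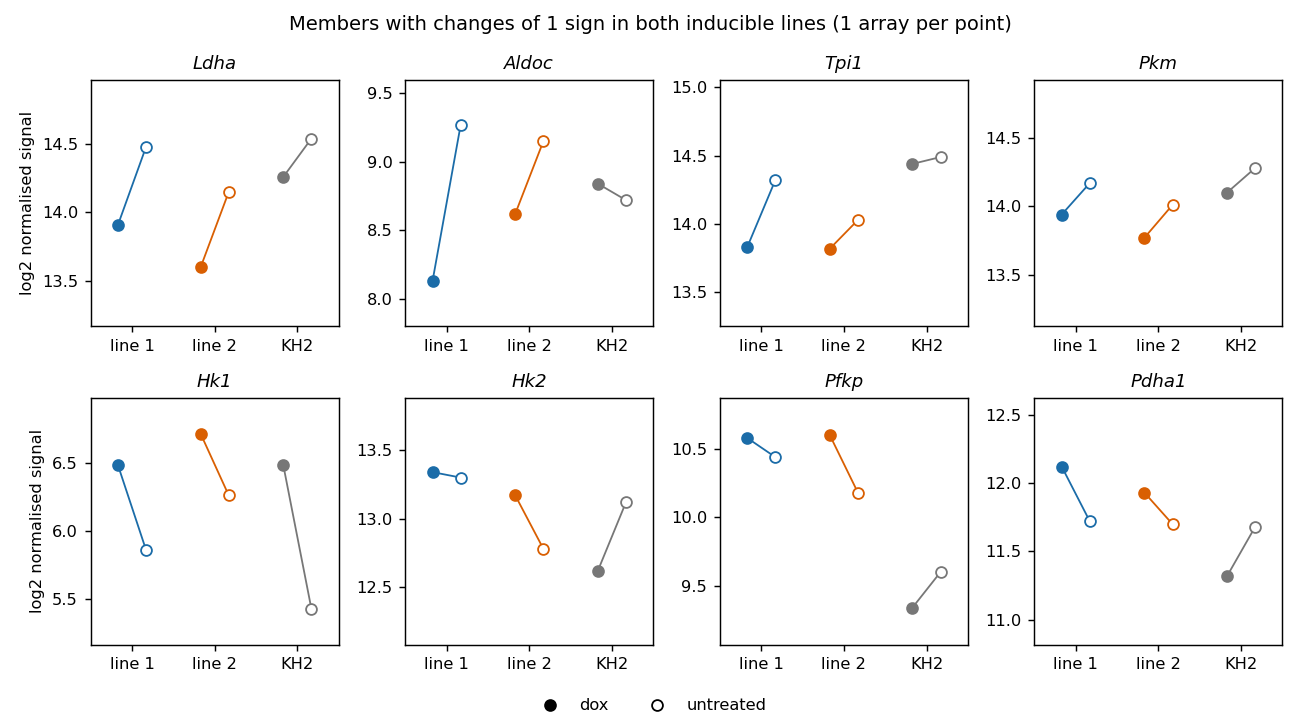
Normalised signal (log2) of 8 genes on each array, by line, with filled points for arrays with doxycycline and open points for untreated arrays, joined within a line. Every panel spans the same log2 range. Ldha, Aldoc, Tpi1 and Pkm read lower with doxycycline in both inducible lines, and Hk1, Hk2, Pfkp and Pdha1 read higher, while in KH2 Hk2, Pfkp and Pdha1 read lower. A second Pfkp probe, not drawn, differed by 0.04 in KH2.

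The second comparison took the doxycycline difference of KH2 off that of the inducible lines, so that an effect of the drug alone would cancel. No member passed (smallest adjusted p = 0.996 by limma, background 0%), and 0 of 12373 probes did, with 344 at an unadjusted p under 0.05. The largest values were those of Aldoc (-0.96 ± 0.41, SE) and Eno3 (-0.85 ± 0.52), followed by Hk2 (0.72 ± 0.42), Pgam2 (-0.72 ± 1.18) and Pdha1 (0.67 ± 0.34). The dimmest of the 3 Tpi1 probes gave -0.99 ± 0.34 (SE, adjusted p = 0.996) where the probe that stood for the gene gave -0.30. The Pgam2 value turned to 0.24 without the untreated array of line 2, and Hk2 was then 0.45. Eno3 was -0.49 without the untreated array of line 1, and Hk2 was 0.48 with median scaling. The Ldha value was -0.28 ± 0.39, since KH2 was lower with doxycycline too. Of the 26 genes, 4 (Ldha, Pfkl, Pkm and Tpi1) were lower with doxycycline in all 3 lines, or 15.4%, against 18.2% of all genes, and 2 (Hk1 and Pfkfb4) were higher in all 3, or 7.69%, against 18.5%. The median was -0.08 over the 26 genes and 0.01 over all genes, with 10 (38.5%) above 0, against 50.7% of all genes. No member had an unadjusted p under 0.05, against 2.7% of all genes. The KH2 difference enters this comparison from 1 array of each kind.

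The third comparison set the mean of the inducible lines against that of KH2 over both treatments, so a difference need not be there in each line or each treatment. Pfkp and Fbp1 read higher in the inducible lines, and Eno3, the muscle-type enolase, Slc2a1 and Tpi1 read lower. No member passed (smallest adjusted p = 0.366 by limma, background 0% higher and 0.0116% lower). At an unadjusted p under 0.05 were 5 of 26 genes (19.2%), against 10.2% of all genes. The fit treats the arrays of a line as independent, though the line 2 minus line 1 difference correlated with and without doxycycline (r = 0.509 over 12373 probes). The standard errors and unadjusted p-values of this comparison may therefore be too small.

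Pfkp read 10.58 and 10.44 in line 1 and 10.60 and 10.18 in line 2 (with and without doxycycline), against 9.34 and 9.60 in KH2. All 4 inducible arrays lay above both KH2 arrays, by a fitted 0.98 ± 0.17 (SE, n = 4 arrays of 2 lines against 2 arrays of 1 line, limma adjusted p = 0.366), a fold of 1.97. Its second probe gave 0.61, and the difference was 1.25 among the 3 arrays with doxycycline and 0.71 among the 3 untreated ones, an added check chosen after the data were seen.

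Eno3 read 9.48 and 9.89 in line 1 and 9.07 and 9.18 in line 2, with and without doxycycline, against 10.77 and 10.17 in KH2. The inducible lines were lower by a fitted -1.06 ± 0.26 (SE, limma adjusted p = 0.390), and KH2 with doxycycline was the highest array. The difference was -1.49 with doxycycline and -0.64 without. Slc2a1 read 13.25 to 13.61 in the inducible lines, against 13.78 in KH2_dox and 14.07 in KH2_untreated, a fitted difference of -0.53 ± 0.19 (SE). The 3 Tpi1 probes read lower in the inducible lines by -0.46, -0.54 and -0.28.

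Fbp1 was below detection in KH2_untreated (5.29), with 5.64 in untreated line 1, close to its detection limit, and 7.26 in untreated line 2. KH2_dox, at 5.92, was detected and lay above untreated line 1, so the inducible and KH2 arrays overlapped for Fbp1. Its fitted difference over both treatments was 1.12 ± 0.44 (SE, limma adjusted p = 0.470), with 0.54 where no background correction was made and 0.72 without the untreated array of line 2. All 4 inducible arrays lay above both KH2 arrays for 5 genes (Gapdh, Pdha1, Pfkm, Pfkp and Pgk1), or 19.2%, against 8.22% of all genes. They lay below both for 4 (Eno3, Pgam1, Slc2a1 and Tpi1), or 15.4%, against 11.6%. The Gapdh difference behind such a count was 0.07 ± 0.16 (SE), within the error, and its second probe gave -0.05. The lowest inducible array was also close to the highest KH2 array for Pfkm (11.04 against 10.98), Pgk1 (7.48 against 7.43) and Pdha1 (11.70 against 11.68). The median was 0.04 over the 26 genes and 0.00 over all genes, with 14 (53.8%) above 0, against 49.5%.

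The last comparison set line 2 against line 1, with doxycycline as a covariate. Here Pgam2, the muscle-type phosphoglycerate mutase, passed the test and was the only one of the 26 genes to do so. It was one of the 106 genes called higher in line 2, 1.23% of those tested, while 0.697% were called lower with no member among them. Over all probes 226 were called, 138 higher and 88 lower. At an unadjusted p under 0.05 were 5 of 26 genes (19.2%), against 17.4% of all genes, and 13 genes (50%) lay above 0, against 49.8%.

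Pgam2 read 8.95 with and 9.64 without doxycycline in line 2, against 7.63 and 7.71 in line 1. KH2, at 7.69 and 7.35, lay near line 1. Line 2 was higher by 1.63 ± 0.24 (SE, n = 2 arrays against 2, limma adjusted p = 0.0134), a fold of 3.09, with 1.33 between the induced arrays and 1.93 between the untreated ones. The call was lost without the untreated array of line 2 (1.22, adjusted p = 0.126), with no filter on dim probes (1.63, adjusted p = 0.159) and in the authors' normalised values (1.70, adjusted p = 0.0748). A single probe reads this gene. The summed log2 level of the 4 muscle markers was 20.71 and 21.03 in line 2, against 20.76 and 21.10 in line 1. Only 1 of the 4 was detected on each array, and Myod1 and Ckm on none, so this sum lies mostly at background and could hardly move. The summed level of the endoderm markers given above was higher in line 2 as well. Among them Sparc, a matrix protein of parietal endoderm, was called higher in line 2 (0.94, limma adjusted p = 0.0423), and Gata6 read higher by 1.40 ± 0.37 (SE, adjusted p = 0.0825). Of the 8 pluripotency markers only Zfp42 was called, and it was lower in line 2 (-0.95, limma adjusted p = 0.0471). The 8 had a median of -0.03 in this comparison, with 3 higher and 5 lower. The part of these markers in the Pgam2 difference was not tested.

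Fbp1 read 7.23 and 7.26 in line 2, with and without doxycycline, against 6.79 and 5.64 in line 1, a difference of 1.03 ± 0.26 (SE, limma adjusted p = 0.0738) that did not pass. It passed without the induced array of line 1 (1.46, adjusted p = 0.000142) or of line 2 (1.49, adjusted p = 0.0173). It was smaller and did not pass without the untreated array of line 1 (0.61, adjusted p = 0.315) or of line 2 (0.58, adjusted p = 0.826), and was 0.52 with no background correction. Fbp2 was higher in line 2 by 1.89 (adjusted p = 0.0514) and did not pass either. Of the other muscle isoforms on the list, Eno3 ran the other way, with -0.56 ± 0.24 (SE, limma adjusted p = 0.264). Eno3 was -0.23 without the untreated array of line 1 and -0.89 without the induced one. Pfkm read higher in line 2 by 0.21 ± 0.19 (SE, limma adjusted p = 0.644), and its other probes gave 0.12 and 0.40. Pfkfb4 read 7.65 and 7.37 in line 2, against 7.12 and 6.77 in line 1 (0.57 ± 0.19, SE, adjusted p = 0.158, and 0.35 with no background correction), and Pdk1 read 10.48 and 10.55 in line 2, against 10.97 and 10.96 in line 1 (-0.45 ± 0.20, SE, adjusted p = 0.277). Line 2 did not overlap line 1 for 6 genes that were higher, or 23.1%, against 23.2% of all genes, and for 5 that were lower, or 19.2%, against 23.1%.

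**Figure D3:**
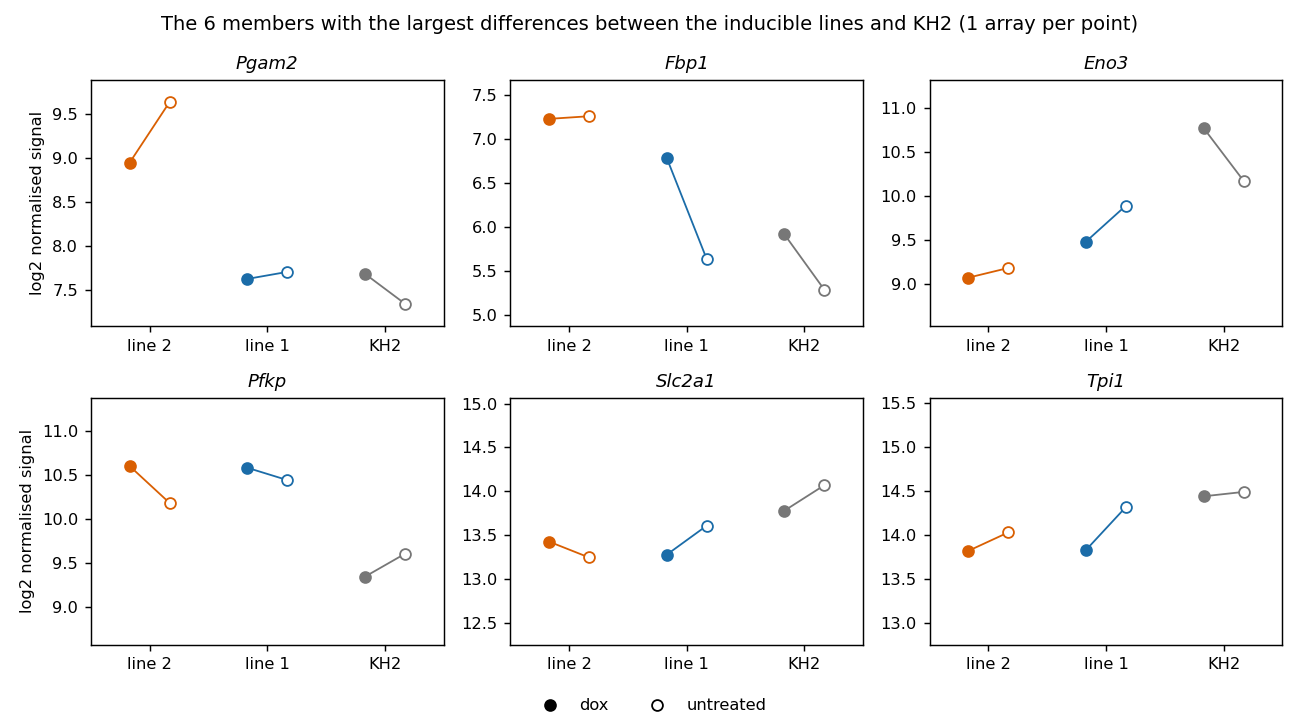
Normalised signal (log2) of the 6 genes with the largest differences between the inducible lines and KH2, by line, with filled points for arrays with doxycycline and open points for untreated arrays. Every panel spans the same log2 range. Pgam2 stands at 8.95 and 9.64 in line 2, above line 1 and KH2, and Pfkp is above 10 on the 4 inducible arrays and below it in KH2.

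Genes around the pathway were read from further lists of textbook members, and in the first comparison 0 genes of any of these lists passed in either direction. Of 22 HIF targets, 13 were tested, with a median of -0.13 in the induced against the untreated lines (6 higher, 7 lower). Within the lines the medians of that list had the other sign, 0.08 in line 1 (7 higher, 6 lower) and 0.15 in line 2 (10 higher, 3 lower), so it has no settled direction. The members of the list did not move together: Stc2, a secreted stress glycoprotein, differed by 1.35 in line 1 and 0.28 in line 2, and Egln3, a prolyl hydroxylase that marks HIF for removal, by -1.38 and 0.06. Hif1a itself differed by 0.01 and 0.06 in the inducible lines and by -0.48 in KH2.

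Of 26 genes of pyruvate dehydrogenase and the citric acid cycle, 18 were tested, with a median of 0.03 (11 higher, 7 lower). The medians were 0.08 for 4 pentose phosphate genes, 0.21 for 5 genes of the serine branch, which leaves glycolysis at phosphoglycerate, and 0.04 for 9 regulators. By line, the serine branch median was 0.32 in line 1 (5 of 5 higher), 0.09 in line 2 (3 of 5) and 0.22 in KH2 (4 of 5). For 6 genes of gluconeogenesis and glycogen the median was 0.29, with 5 higher, led by Fbp2 and the glycogen synthase Gys1 (1.14 in line 1, 0.28 in line 2). Gys1 read 0.55 higher with doxycycline in KH2 too. The KH2 median of that list was 0.26 (4 of 6 higher), and the inducible lines minus KH2 gave a median of 0.10. The 7 tested glycolysis genes outside the 33 had a median of 0.21 with 6 higher. Among them, Pfkfb2 differed by 0.95 and 0.37 and the pyruvate dehydrogenase kinase Pdk4, which was detected on 4 of 6 arrays, by 1.00 and 0.27.

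**Figure D4:**
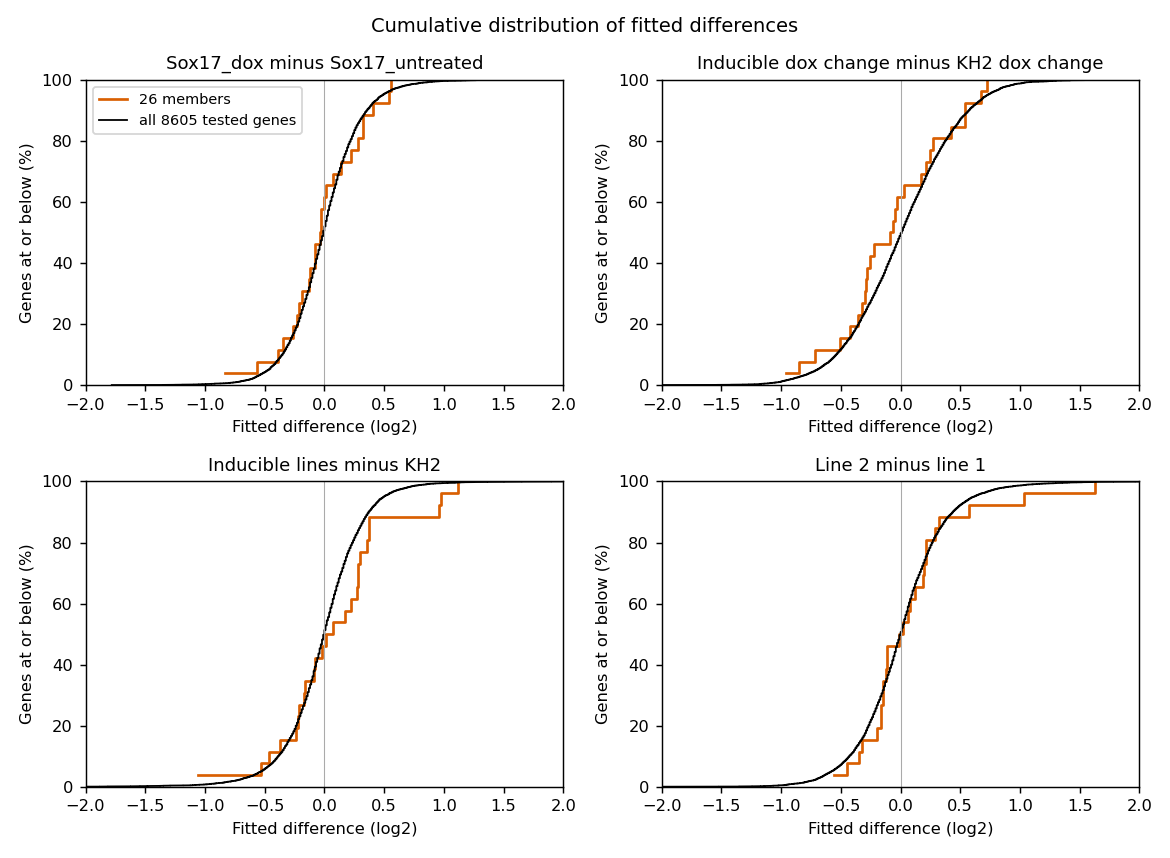
Cumulative share (%) of genes at or below each fitted difference (log2), for the 26 genes and for all 8605 tested genes, in the 4 comparisons. The axis ends at -2 and 2, and genes beyond it are not drawn. In the first, the curves run close together, with medians of -0.04 and -0.01. In the last 2, a few members lie far from 0, up to 1.12 (Fbp1) and 1.63 (Pgam2).

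The genes whose 6 normalised values followed Ldha most closely, among 1677 genes with a range of at least 1, were Nfkbid (Pearson r = 0.996), Pinx1 (0.993), Nod1 (0.984), Rab33a (0.982) and Zscan5b (0.979). Those closest to Slc2a1 were Efna5 (0.985), Nt5e (0.977), Fam83f (0.970), Csn3 (0.965) and Pou3f1 (0.965). These are descriptions over 6 arrays of 3 lines on 1 platform, and arrays of a line share their source.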

How the data were processed

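Per the file headers, the authors deposited for each probe the mean bead signal as an intensity on a linear scale, its bead standard error, the number of beads (a count) and a detection p-value. Per the submitters' processing notes BeadStudio was used, with a version not given in the sources used here. A second deposited table holds the authors' normalised intensity, by a method not given there, and served as an alternative. The raw signal was corrected for background with the normexp model, given an offset of 16, quantile-normalised and set on the log2 scale (neqc, limma 3.58.1, R 4.3.3). The offset shrinks differences of dim probes. Tests covered the 12373 probes that 2 or more arrays detected (detection p below 0.05), and the brightest of these stood for its gene. Symbols came from the platform annotation; 1719 probes had none.

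lmFit and eBayes gave two-sided tests, adjusted by Benjamini-Hochberg across the tested probes with a threshold of 0.05. The first 3 used 4 group means and the last used line plus doxycycline, each with 2 residual degrees of freedom. KH2 has no replicates, so its spread was taken from the other arrays. Arrays of a line are paired by their labels; the line 2 minus line 1 difference correlated at r = 0.509 with and without doxycycline over 12373 probes. A lower bound against the detection limit replaces the fitted fold of a group in which no array detected the probe.

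By their labels all 6 arrays share 1 chip. Members and lists were chosen with earlier results of these data known. Values per array are given for members that passed, differed by at least 0.5 in both lines one way, ranked in the top 6 of a comparison or were the brightest of a step, and for some others added after their values were seen, as were the promoters shown. The fitting steps were tested on simulated data. Alternatives covered background, scaling, filter, moderation, probe choice, the authors' values, the line as a block and leaving out each array.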

Additional observations from a re-analysis of the deposited data

Results flagged for a closer look

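For 8 members both inducible lines differed one way with doxycycline and KH2 the other way. The doxycycline difference of the inducible lines minus that of KH2 was 0.72 for Hk2, 0.54 for Pfkp, 0.54 for Eno2 and 0.67 for Pdha1. These 4 read higher with doxycycline in both inducible lines. The same quantity was -0.96 for Aldoc, -0.85 for Eno3, -0.72 for Pgam2 and -0.09 for Pgam1, which read lower with doxycycline in both inducible lines. By the test of the difference itself in limma none passed (smallest adjusted p = 0.996). Each KH2 value comes from 1 array with and 1 without doxycycline, and the Pgam1 differences (-0.04, -0.04 and 0.05) are small beside the error of 0.33. Higher in both inducible lines and lower in KH2 were 4 of the 26 members (15.4%), against 10.8% of all tested genes, and the reverse held for 4 (15.4%), against 13%. Pfkp is among them by its brightest probe only. Its second probe differed by 0.04 in KH2 and gave 0.27 for the inducible lines minus KH2.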

How the results depend on the processing

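The genes recomputed were the 6 with the largest values in each comparison of these same data. Alternatives of filter, moderation or line block leave a fitted difference unchanged, as does leaving out a KH2 array in the first comparison. Part of the agreement was therefore fixed in advance. Of 314 values of single genes recomputed under an alternative, 310 kept their direction. The exceptions were Pgam2 in the first comparison without the induced array of line 1 (0.27) or the untreated array of line 2 (0.57), Pgam2 in the second without the untreated array of line 2 (0.24), and Fbp1 in the first without the untreated array of line 1 (-0.25). Leaving out 1 array gave Pgam2 values of -1.35 to 0.57 in the first comparison and -1.69 to 0.24 in the second, and Fbp1 values of -0.25 to 1.37. In the first comparison the replicate block for the line gave 1 probe called, against 0 without it, with 0 members called; it changed no other call. A block could not be fitted in the third comparison, where each line lies on 1 side. Leaving out 1 array gave a member median of -0.04 to 0.04 in the first comparison and 0.03 to 0.11 in the third, where the probes called ranged from 0 (without the untreated array of line 2) to 33 (without that of line 1). The single probe called in the third comparison was lost (0 called) without background correction, with no filter, with probes detected on all 6 arrays and within the 3 untreated or the 3 doxycycline arrays, the last 2 added after seeing the data. The member median there was 0.14 with median scaling, -0.02 with probes detected on all 6 arrays, 0.09 in the authors' values and 0.01 by the mean over probes, so its sign is not settled. The second comparison's median was -0.16 in the authors' values. In the last comparison 359 probes were called without background correction, 516 with trend and robust moderation (2 members, Fbp1 being the second), 18 in the authors' values (0 members) and 0 with no filter (0 members). Its member median was 0.10 with median scaling and -0.11 with probes detected on all 6 arrays. Leaving out 1 array gave 45 to 493 probes, 0 to 2 members and a median of -0.09 to 0.03. The probe count was 45 without the untreated array of line 2, 128 without the induced array of line 2, 408 without the untreated array of line 1 and 493 without the induced array of line 1. The cause was not tested. Median scaling moved the share of higher values among probes at an unadjusted p under 0.05 to 64.2% in the second comparison, against 45.9%, and to 61% in the third, against 49.4%. Members near the detection limit (Slc16a3, Hk1, Fbp1 and Pfkfb3) are limited by signal over background.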
